A study of Mus musculus with 23 samples.

Results

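Nuclear genes of oxidative phosphorylation were followed through retinoic acid treatment of F9 cells, which are mouse embryonal carcinoma cells known to differentiate into extraembryonic endoderm when given this compound. The genes were taken by symbol from a table of 36814 genes: every symbol that starts with Ndufa, Ndufb, Ndufc, Ndufs, Ndufv, Uqcr, Cox4 to Cox8 or Atp5, and Sdha, Sdhb, Sdhc, Sdhd, Cyc1 and Cycs. Symbols with -ps or -rs in them and Gm names were left out. This gave 99 genes, of which 40 belong by name to complex I, 8 to its assembly factors, 4 to complex II, 9 to complex III, 19 to complex IV and 16 to complex V. Cycs stands for cytochrome c, and 2 of the symbols taken (Ndufa4l2 and Atp5s) were counted apart because they are not standard subunits of a complex. Ndufa4 is counted with complex I by its name, although its protein is now assigned to complex IV. A filter for low counts was passed by 96 of the 99 genes and left out Cox8b, Cox8c and Ndufb4c.

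Oxidative phosphorylation passes electrons from NADH through complex I, or from succinate through complex II, by way of ubiquinone to complex III, and by way of cytochrome c to complex IV, which reduces oxygen. Complexes I, III and IV pump protons out of the mitochondrial matrix, and complex V, the ATP synthase, lets them flow back to make ATP. Most subunits are encoded in the nucleus and joined in the inner membrane with a few that are encoded by mitochondrial DNA. Pluripotent and embryonal carcinoma cells are known for a high rate of glycolysis, and a shift in the balance between glycolysis and respiration is a known feature of their differentiation.

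The mRNA of F9 cells was sequenced in 14 libraries. There were 4 libraries of cells collected at 0 h without treatment, and 2 each after 6, 12, 24 and 48 h in all-trans retinoic acid (RA) at 1e-07 M. Dimethyl sulfoxide (DMSO), the solvent of RA, was given alone at 0.001% for 24 h and for 48 h, with 1 library each. F9 is 1 cell line, and nothing says that libraries of a group came from separate cultures, so p-values measure how far these libraries spread, and that spread may be technical. A comparison of an RA time with 0 h holds both RA and the time in culture, and only the 24 h and 48 h points have a DMSO library to set beside them.

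Genes held 7.08 to 10.9 M (mega) counts per library. The libraries formed 2 sets by their no-feature share, 57.3 to 59.4% in set 1 and 52.5 to 53.8% in set 2. For this share, reads that fell on no feature were divided by the sum of these reads and the gene counts. Alignments that were not unique were left out of it, so it is not a share of all reads. Both DMSO libraries and replicate 1 of each other group lay in set 1, and the others lay in set 2. All tests below carry a term for the set. At 48 h of RA all 10 embryonal carcinoma markers were lower, and all 14 tested endoderm markers were higher. In these bulk samples, fewer cells of a type and less RNA per cell cannot be told apart.

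After 48 h of RA, transcripts of the respiratory chain and of ATP synthase were lower as a group. At 6, 12 and 24 h few of them were called, and the libraries of 24 h went different ways. Levels are given in CPM (counts scaled to 1 common library size with TMM), and a call means an adjusted p under 0.05 in edgeR's quasi-likelihood test (Benjamini-Hochberg over 16155 genes). At 48 h, 54 of the 96 tested members were lower than at 0 h and 1, Cox7a1, was higher. Of all genes tested, 22.9% were lower and 25.8% higher. The median log2 change was -0.44 over the members and 0.02 over all genes, and 89 of the 96 members lay below zero. Most members had at least 10 CPM, and among genes of at least 10 CPM the comparison was 53 of 84 members against 32.3% of 9909 genes, with medians of -0.45 and -0.13.

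The members were mostly lower in both library sets at 48 h, called or not. Of the 89 members of at least 5 CPM, 74 lay below 0 h of the same set in both, and 11 lay above it in set 1 and below it in set 2. The 0 h level of set 1 is a single library. Members also shifted together between the 0 h libraries of set 2. Below the mean of these libraries lay 77 of the 89 in replicate 2, 24 in replicate 3 and 34 in replicate 4. The median log2(CPM + 1) differences were -0.12, 0.08 and 0.03. The share of all genes below 0 h in both sets was not computed. Of the 96 tested members, 39 had both RA libraries below all 4 libraries of 0 h, whatever the set, and 2 had both above, against 22.7% and 27.4% of all genes tested. The number of calls depended on how the sets were handled: 14 members were called with no term for the set and 21 with set 2 alone, and leaving out replicate 2 of 48 h gave 23. All 55 called members kept their direction in each of these fits.

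At the earlier times few members were called. At 6 h no member was called by edgeR (5.61% of all genes were), 2 passed an unadjusted p of 0.05, and DESeq2 also called 0; without replicate 3 of 0 h 1 was called. At 12 h, 2 members were higher (7.38% of all genes were) and 0 were lower (5.31%). These were Cox7a1 and Ndufa4l2, and without either library of 12 h 0 were called, and 1 without replicate 2 of 0 h. At 24 h the same 2 genes were higher (15.5% of all genes) and 2, Ndufaf4 and Cox7c, were lower (13.5%). The median over the members was -0.01 at 6 h, -0.09 at 12 h and -0.11 at 24 h. The 4 RA times share their 0 h libraries.

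The libraries of 24 h went different ways. Within set 1, 89 members of at least 5 CPM had a median difference from 0 h of 0.16 on the log2(CPM + 1) scale, and within set 2 it was -0.27. At this time 50 of the 89 were above 0 h in set 1 and below it in set 2, and 1 did the reverse. At 48 h the medians were -0.34 in set 1 and -0.49 in set 2. The DMSO libraries lay at -0.01 at 24 h and 0.04 at 48 h. The 24 h value of the group is therefore an average of a library above and a library below its own 0 h, and the part of the single library in it was not tested.

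**Figure D1:**
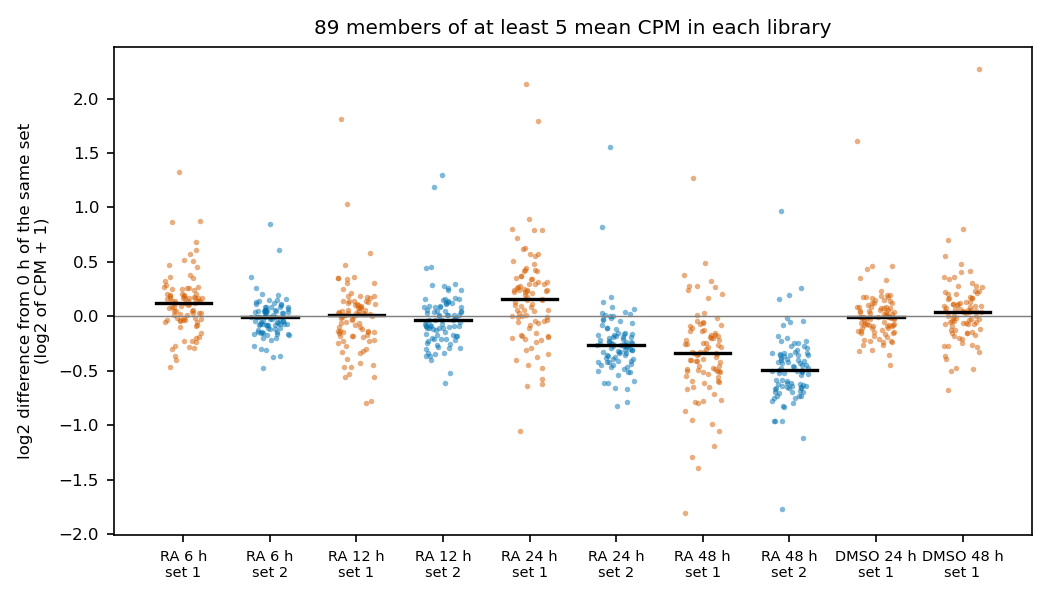
Each point is one of 89 members, plotted as its log2(CPM + 1) difference from the 0 h level of the same library set (orange, set 1; blue, set 2), by library; bars are medians. The medians of both 48 h RA libraries lie below zero, at -0.34 and -0.49, those of the 24 h RA libraries lie on either side of it, and those of DMSO lie at -0.01 and 0.04.

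The summed level of all members showed the same course. It was 13733, 12116, 14318 and 13682 CPM in the 4 libraries of 0 h, 14734 and 13104 at 6 h, and 13444 and 12926 at 12 h. It was 15049 and 11011 CPM at 24 h, 10804 and 9321 at 48 h, and 13858 and 13939 in DMSO at 24 and 48 h. Both 48 h libraries were below every other library, and the 24 h libraries were the highest of all and the third lowest. The part of complex V was 4495 and 3929 CPM at 48 h and 5291 to 6292 CPM at 0 h, and that of complex III was 990 and 951 CPM against 1312 to 1611 CPM.

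**Figure D2:**
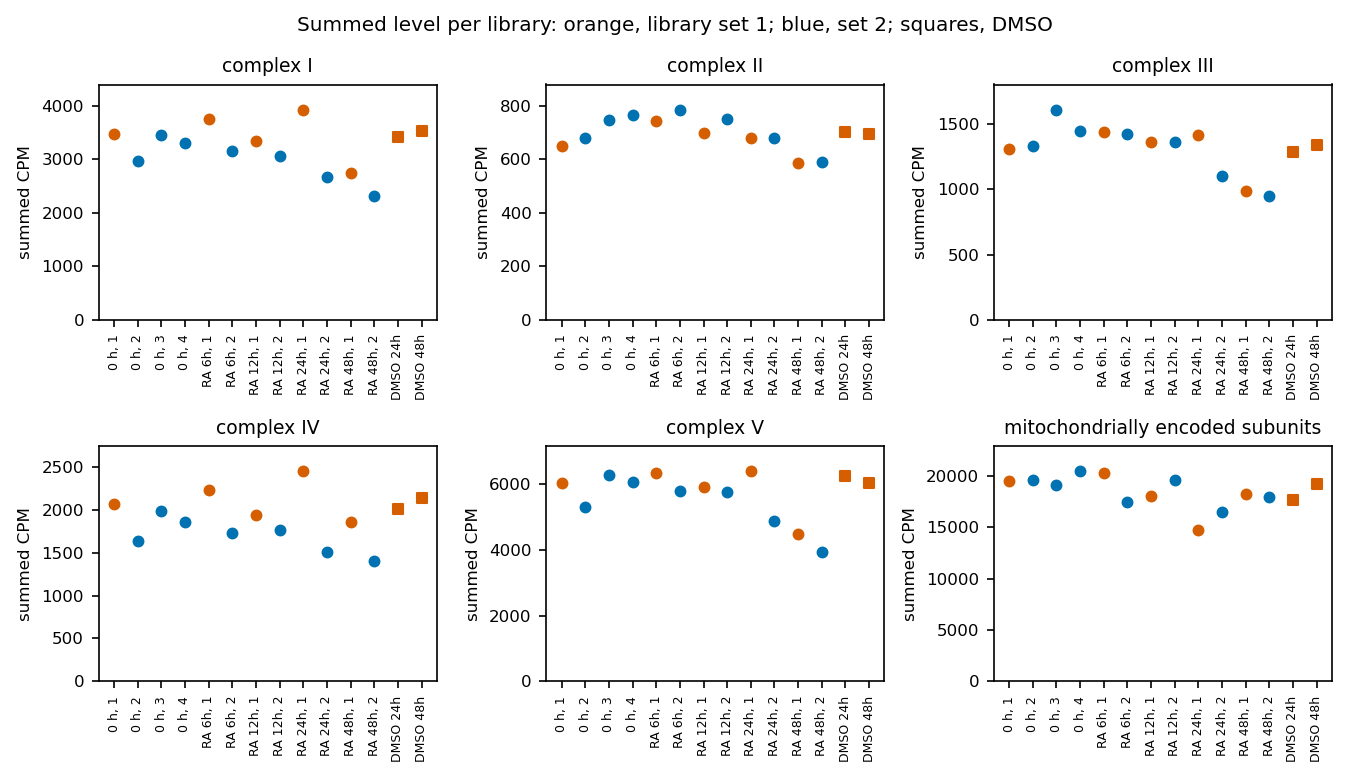
Summed CPM of the nuclear genes of each complex and of the mitochondrially encoded subunits, one point per library (orange, set 1; blue, set 2; squares, DMSO). For complexes I, II, III and V and for the mitochondrially encoded subunits both 48 h RA libraries lie below all 0 h libraries; the last stand at 17902 and 18267 CPM at 48 h and between 19111 and 20458 CPM at 0 h.

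Complex I takes electrons from NADH and hands them to ubiquinone. At 48 h, 21 of its 39 tested members were lower and 0 higher, with a median of -0.44 and a range from -0.80 to 0.07. Ndufv1 (ENSMUSG00000037916), the flavoprotein that binds NADH, stood at 219, 173, 184 and 177 CPM at 0 h and at 153 and 115 CPM after 48 h of RA. Both 48 h libraries were below all libraries of 0 h. This was a log2 change of -0.61 ± 0.11 (SE; edgeR adjusted p = 0.0005), a fall by 34.3%.

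Ndufs1, the largest iron-sulfur subunit of complex I, was not called. It stood at 131, 174, 155 and 177 CPM at 0 h and 110 and 139 CPM at 48 h (log2 change -0.23 ± 0.13, edgeR adjusted p = 0.166). The groups overlapped. The largest decrease among the subunits was that of Ndufs6, an accessory subunit, from 41.7 to 58.0 CPM at 0 h to 26.8 and 30.1 CPM at 48 h (-0.80 ± 0.21, edgeR adjusted p = 0.00652). Ndufs7 and Ndufs8, iron-sulfur subunits of the arm that leads to ubiquinone, were also lower, with log2 changes of -0.75 and -0.61.

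Ndufa4 and its paralog Ndufa4l2 ran apart in time. Ndufa4 (ENSMUSG00000029632) stood at 169 to 224 CPM at 0 h, 166 and 198 CPM at 24 h and 149 and 152 CPM at 48 h, with a log2 change of -0.37 ± 0.14 at 48 h (edgeR adjusted p = 0.036). It was not called without replicate 2 or 4 of 0 h or either library of 48 h (-0.25 to -0.50, adjusted p = 0.0591 to 0.38), nor with the replicate number as a block (-0.24, adjusted p = 0.168). Ndufa4l2 (ENSMUSG00000040280), a known target of the hypoxia-inducible factor HIF-1, had low counts throughout. It stood at 1.65, 6.34, 9.17 and 5.74 CPM at 0 h, 5.65 and 13.3 CPM at 6 h, and 8.31 and 18.6 CPM at 12 h. It then stood at 8.20 and 13.1 CPM at 24 h and at 2.46 and 1.34 CPM at 48 h, against 7.10 and 11.8 CPM in the DMSO libraries of 24 and 48 h.

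Among 0 h and the RA times, Ndufa4l2 was thus highest at 12 h in both sets and lowest, within set 2, at 48 h. In set 1 the RA library of 48 h lay above that of 0 h, and the DMSO library of 48 h lay above every RA library. The log2 change was 1.45 ± 0.38 at 12 h (edgeR adjusted p = 0.0244), 1.18 ± 0.39 at 24 h (adjusted p = 0.0369) and -1.24 ± 0.49 at 48 h (adjusted p = 0.0493). Against DMSO of 48 h it was -3.08 ± 0.59 (edgeR adjusted p = 0.00231). Without replicate 2 of 48 h the change from 0 h was -0.10 (edgeR adjusted p = 0.901), and with the replicate number as a block it was -0.97 (adjusted p = 0.141). The calls at 12, 24 and 48 h were each lost under several single libraries left out, among them replicate 2 of 0 h (1.45, 1.16 and -1.21; adjusted p = 0.0557, 0.0764 and 0.0866) and the libraries of the time itself (1.29 to 1.56 at 12 h, 1.02 to 1.404 at 24 h). The call against DMSO was kept without either RA library of 48 h (-4.43 and -2.19).

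The complex I assembly factors with Ndufaf symbols were lower in 6 of 8 at 48 h, with a median of -0.62. These proteins help to build the complex and leave the finished enzyme. Ndufaf8 (ENSMUSG00000078572) stood at 19.996, 16.3, 25.4 and 16.4 CPM at 0 h and at 8.21 and 9.27 CPM at 48 h (log2 change -1.22 ± 0.27, edgeR adjusted p = 0.00199), and the groups did not overlap. Ndufaf4 (ENSMUSG00000028261) stood at 17.3, 25.3, 29.1 and 46.4 CPM at 0 h, 11.3 and 18.4 CPM at 24 h and 7.80 and 19.1 CPM at 48 h. Its log2 change was -0.79 ± 0.25 at 24 h (edgeR adjusted p = 0.0319) and -0.98 ± 0.25 at 48 h (adjusted p = 0.00556). Each RA library of 24 h and 48 h was below 0 h of its own set, while the ranges of 0 h and 48 h overlapped between sets. The 24 h call was lost without replicate 4 of 0 h or either 24 h library (-0.58 to -0.84, adjusted p = 0.0559 to 0.184) and with the replicate number as a block (-0.54, adjusted p = 0.0878), and the 48 h call without replicate 1 of 48 h (-0.84, adjusted p = 0.0536).

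Complex II oxidises succinate and also works in the tricarboxylic acid cycle. Only Sdhd, a membrane anchor, was called at 48 h among its 4 genes. This is 25% lower, near the 22.9% of all genes and 32.3% of genes of at least 10 CPM. Sdhd (ENSMUSG00000000171) stood at 123, 160, 170 and 184 CPM at 0 h and 96.4 and 129 CPM at 48 h (log2 change -0.41 ± 0.12, edgeR adjusted p = 0.0108). The ranges overlapped across sets, each 48 h library was below 0 h of its own set, and the call was lost without replicate 2 of 48 h (-0.37, adjusted p = 0.129). Sdha, the flavoprotein, stood at 347 to 397 CPM at 0 h and 384 and 305 CPM at 48 h (-0.18 ± 0.11, adjusted p = 0.193). Sdhb, the iron-sulfur subunit, changed by -0.33 ± 0.19 (adjusted p = 0.163) and Sdhc, the other anchor, by -0.30 ± 0.13 (adjusted p = 0.0628), all in edgeR. Whether complex II moved less than the other complexes was not tested.

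Complex III passes electrons from ubiquinol to cytochrome c, and 8 of its 9 genes were lower at 48 h, with a median of -0.59. Uqcrc1 (ENSMUSG00000025651), a core protein, stood at 286, 309, 404 and 327 CPM at 0 h and at 204 and 198 CPM at 48 h. Cyc1 (ENSMUSG00000022551), the cytochrome c1 subunit, stood at 268, 265, 337 and 273 CPM at 0 h and at 195 and 148 CPM at 48 h. For Uqcrc1 both 48 h libraries were below every other library, and for Cyc1 below all but the set 2 library of 24 h, at 182 CPM. The log2 changes were -0.72 ± 0.14 for Uqcrc1 (edgeR adjusted p = 0.000989) and -0.80 ± 0.16 for Cyc1 (edgeR adjusted p = 0.000923), and the genes fell by 39.1% and 42.7%. Without replicate 2 of 48 h Cyc1 was not called (-0.61, adjusted p = 0.0606).

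The Rieske protein and the second core protein had smaller fitted changes. Uqcrfs1, the Rieske iron-sulfur protein, stood at 120 to 160 CPM at 0 h and 94.7 and 114 CPM at 48 h (log2 change -0.42 ± 0.14, edgeR adjusted p = 0.0226). It was not called without either library of 48 h (-0.44 and -0.42, adjusted p = 0.0921 and 0.139), nor with the replicate number as a block (-0.26, adjusted p = 0.13). Uqcrc2, the second core protein, stood at 180, 268, 280 and 271 CPM at 0 h and 159 and 217 CPM at 48 h. Its change of -0.26 ± 0.10 was at the edge of the threshold (edgeR adjusted p = 0.04997). The call was lost whichever library of 0 h was left out, without replicate 2 of 48 h (-0.11, adjusted p = 0.592) and with the replicate number as a block (-0.23, adjusted p = 0.117). Uqcr11, a small subunit, had the largest decrease of complex III (-0.84 ± 0.16, edgeR adjusted p = 0.000793). In set 1 it stood at 54.9 CPM at 0 h and 31.7 CPM at 48 h, and in set 2 at 25.5 to 35.1 CPM and 16.8 CPM.

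Cytochrome c, encoded in somatic cells by Cycs, could not be followed at this depth. Its gene held 1.86 to 1.95 CPM at 0 h and 1.23 and 1.502 CPM at 48 h, with a log2 change of -0.56 ± 0.46 (edgeR adjusted p = 0.339). RefSeq lists 3 pseudogenes of Cycs. Of all entries in the count tables, 33.1 to 50.9% were alignments that were not unique and were given to no gene. Ndufs5, which also has a listed pseudogene, and Ndufb4 and Atp5g2 were similarly low. For these genes, reads lost to copies and low expression cannot be told apart. Ndufa11b, Ndufs6b and Cox6c2 are themselves listed as pseudogenes in the RefSeq gene table, so their counts are uncertain. Cox6c2 stood at 54.3, 25.9, 24.9 and 28.1 CPM at 0 h and 20.01 and 17.8 CPM at 48 h, below all of 0 h (-0.90 ± 0.19, edgeR adjusted p = 0.00128).

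Complex IV has several subunits that come as a widely expressed form and a form known from heart and muscle or from testis. At 48 h, 8 of its 17 tested members were lower and 1 was higher. That one was Cox7a1 (ENSMUSG00000074218), the form of subunit 7a known from heart and muscle. It stood at 2.86, 2.52, 4.53 and 2.34 CPM at 0 h, 6.04 and 5.14 CPM at 6 h, and 6.86 and 8.13 CPM at 12 h. It reached 15.9 and 10.8 CPM at 24 h and stood at 8.31 and 6.84 CPM at 48 h. The DMSO libraries held 3.34 CPM at 24 h and 2.07 CPM at 48 h, and every RA library was above all libraries of 0 h and DMSO.

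Cox7a1 rose by a log2 change of 1.26 ± 0.31 at 12 h (edgeR adjusted p = 0.0159), 2.06 ± 0.30 at 24 h (adjusted p = 0.000202) and 1.26 ± 0.31 at 48 h (adjusted p = 0.0039), and its peak was 4.18-fold the 0 h level. Its paralogs were lower. Cox7a2 (ENSMUSG00000032330), the widely expressed form, stood at 78.0, 118, 142 and 143 CPM at 0 h and 65.0 and 94.9 CPM at 48 h (-0.46 ± 0.14, edgeR adjusted p = 0.0164). Cox7a2l, which joins complexes III and IV into supercomplexes, stood at 70.4 to 80.4 CPM at 0 h and 50.8 and 54.7 CPM at 48 h (-0.49 ± 0.15, edgeR adjusted p = 0.0145). Without either library of 48 h neither paralog was called (-0.52 and -0.42 for Cox7a2, -0.47 and -0.55 for Cox7a2l; adjusted p = 0.0589 to 0.157), nor with the replicate number as a block (-0.28 and -0.41; adjusted p = 0.1 and 0.0511). Cox7a1 at 12 h was not called without either library of that time (1.46 and 0.97, adjusted p = 0.0528 and 0.305), and at 48 h it was not called with set 2 alone (1.16, adjusted p = 0.0745).

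The other tissue forms of complex IV were lower or not called. Cox6b2 (ENSMUSG00000051811), known from testis, stood at 49.6, 27.3, 26.0 and 17.8 CPM at 0 h and 25.2 and 13.4 CPM at 48 h (log2 change -0.89 ± 0.19, edgeR adjusted p = 0.00178). It stood at 46.8 and 66.1 CPM in DMSO, and its widely expressed partner Cox6b1 changed by -0.35 ± 0.14 (adjusted p = 0.047). Cox6b1 was not called when replicate 2, 3 or 4 of 0 h or either library of 48 h was left out (-0.29 to -0.42), nor with the replicate number as a block (-0.22, adjusted p = 0.203). Cox6a2, the heart and muscle form, held 0 to 0.373 CPM at 0 h and 0.821 and 1.17 CPM at 48 h (2.21 ± 0.93, edgeR adjusted p = 0.0625), and was called without replicate 2 of 0 h (2.92, adjusted p = 0.0431). Cox4i2 and Cox7b2 were at or below 1.17 CPM in all libraries and were not called. Cox8c had 1 count in 1 library of 0 h, and Cox8b and Ndufb4c had 0 counts in all 14, which allows up to 0.250 to 0.451 CPM per library for counting error alone.

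Cox7c (ENSMUSG00000017778), a small structural subunit, had the largest decrease among the called members of complex IV. It stood at 14.7, 26.0, 32.1 and 31.7 CPM at 0 h, 6.60 and 22.1 CPM at 24 h and 5.44 and 13.2 CPM at 48 h. The 48 h libraries were below all of 0 h, and set 1 was below set 2 at every time. The log2 change was -0.66 ± 0.21 at 24 h (edgeR adjusted p = 0.0294) and -1.21 ± 0.22 at 48 h (adjusted p = 0.00047). The 24 h call was lost without replicate 1 of 0 h or either library of 24 h (-0.51, -0.51 and -0.90; adjusted p = 0.0932, 0.17 and 0.0516) and with the replicate number as a block (-0.65, adjusted p = 0.0658). RefSeq lists a pseudogene of Cox7c.

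Several widely expressed subunits of complex IV were not called. Cox4i1, the regulatory subunit, stood at 458 to 564 CPM at 0 h and 523 and 444 CPM at 48 h (log2 change -0.18 ± 0.13, edgeR adjusted p = 0.273). Cox5a, Cox6a1 and Cox8a changed by -0.31 ± 0.14, -0.29 ± 0.23 and -0.50 ± 0.20 and were not called (edgeR adjusted p = 0.0914, 0.321 and 0.0561). Cox8a was called without replicate 1 of 0 h (-0.64, adjusted p = 0.0235). For Cox6a1 the sets went opposite ways, at 343 and 415 CPM in set 1 and at 176 to 261 and 131 CPM in set 2 for 0 h and 48 h, and its direction flipped with no term for the set (0.19).

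**Figure D3:**
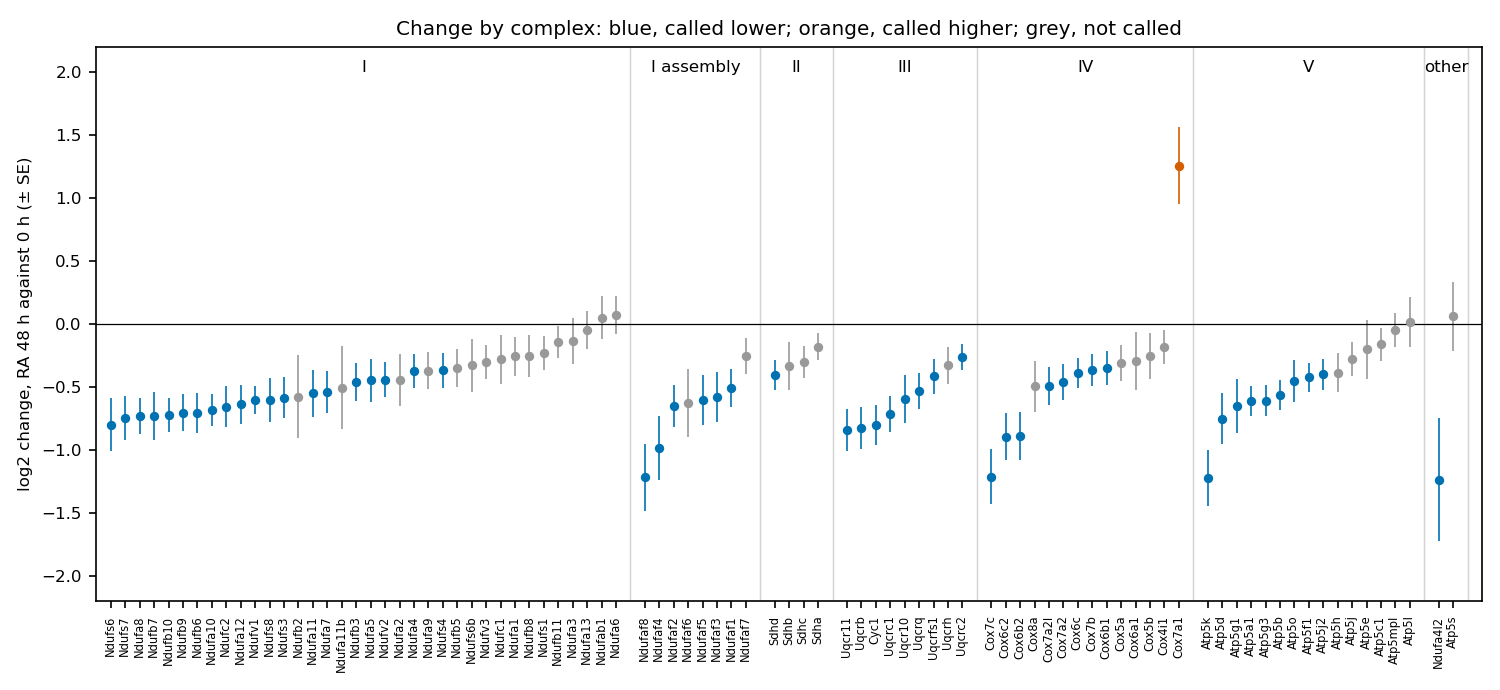
Log2 change at 48 h of RA against 0 h with its SE, ordered within each complex (blue, called lower; orange, called higher; grey, not called). All tested members of at least 5 mean CPM are shown, apart from the member not reported here by name. Most points of every complex lie below zero, and Cox7a1 at 1.26 is the one called member above it.

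Complex V makes ATP, and 9 of its 16 genes were lower at 48 h, with a median of -0.41. Atp5a1 and Atp5b encode the alpha and beta subunits of the catalytic head. Atp5b (ENSMUSG00000025393) stood at 2561, 2259, 2712 and 2651 CPM at 0 h and 1836 and 1677 CPM at 48 h, and Atp5a1 (ENSMUSG00000025428) at 1242, 1235, 1472 and 1397 CPM and 934 and 841 CPM. For both, the 48 h libraries were below every other library. The log2 changes were -0.56 ± 0.12 for Atp5b and -0.61 ± 0.12 for Atp5a1 (edgeR adjusted p = 0.00154 and 0.000961), and the genes fell by 32.3% and 34.5%. Without replicate 2 of 48 h neither was called (-0.48 and -0.49; adjusted p = 0.058 and 0.0536).

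The ring of c subunits, which turns as protons pass, is encoded by 3 genes for the same mature protein. Atp5g3 stood at 435 to 495 CPM at 0 h and 311 and 304 CPM at 48 h (log2 change -0.61 ± 0.12, edgeR adjusted p = 0.000973). Atp5g1 stood at 63.0 and 62.5 CPM in set 1 and fell from 30.2 to 45.0 CPM to 18.5 CPM in set 2, so its call (-0.65 ± 0.22, adjusted p = 0.0231) rests on set 2 and was lost without replicate 2 of 48 h (-0.32, adjusted p = 0.421) and with the replicate number as a block (-0.33, adjusted p = 0.116). Atp5g2 was near 1 CPM and was not called (-0.07 ± 0.56, edgeR adjusted p = 0.933).

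Atp5k (ENSMUSG00000050856), the e subunit of the membrane part, which helps ATP synthase to form dimers, had the largest decrease of complex V and also the largest difference between sets of complex V. In set 1 it stood at 176 CPM at 0 h, 143, 103, 142 and 49.8 CPM at 6, 12, 24 and 48 h of RA, and 147 and 110 CPM in DMSO. In set 2 it stood at 36.3 to 42.9 CPM at 0 h and at 40.4, 41.1, 29.3 and 22.2 CPM at the same RA times. Within each set the 48 h library was the lowest, and across sets the ranges overlapped. The log2 change at 48 h was -1.22 ± 0.22 (edgeR adjusted p = 0.000517), and with no term for the set it was -1.02 and not called. RefSeq lists 4 pseudogenes of Atp5k. Of the members named at 48 h, Ndufv1, Ndufaf8, Uqcrc1, Uqcr11, Cox6b2, Cox6c2, Cox7a1, Cox7c, Atp5g3 and Atp5k kept their call when any one library of 0 h or 48 h was left out.

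**Figure D4:**
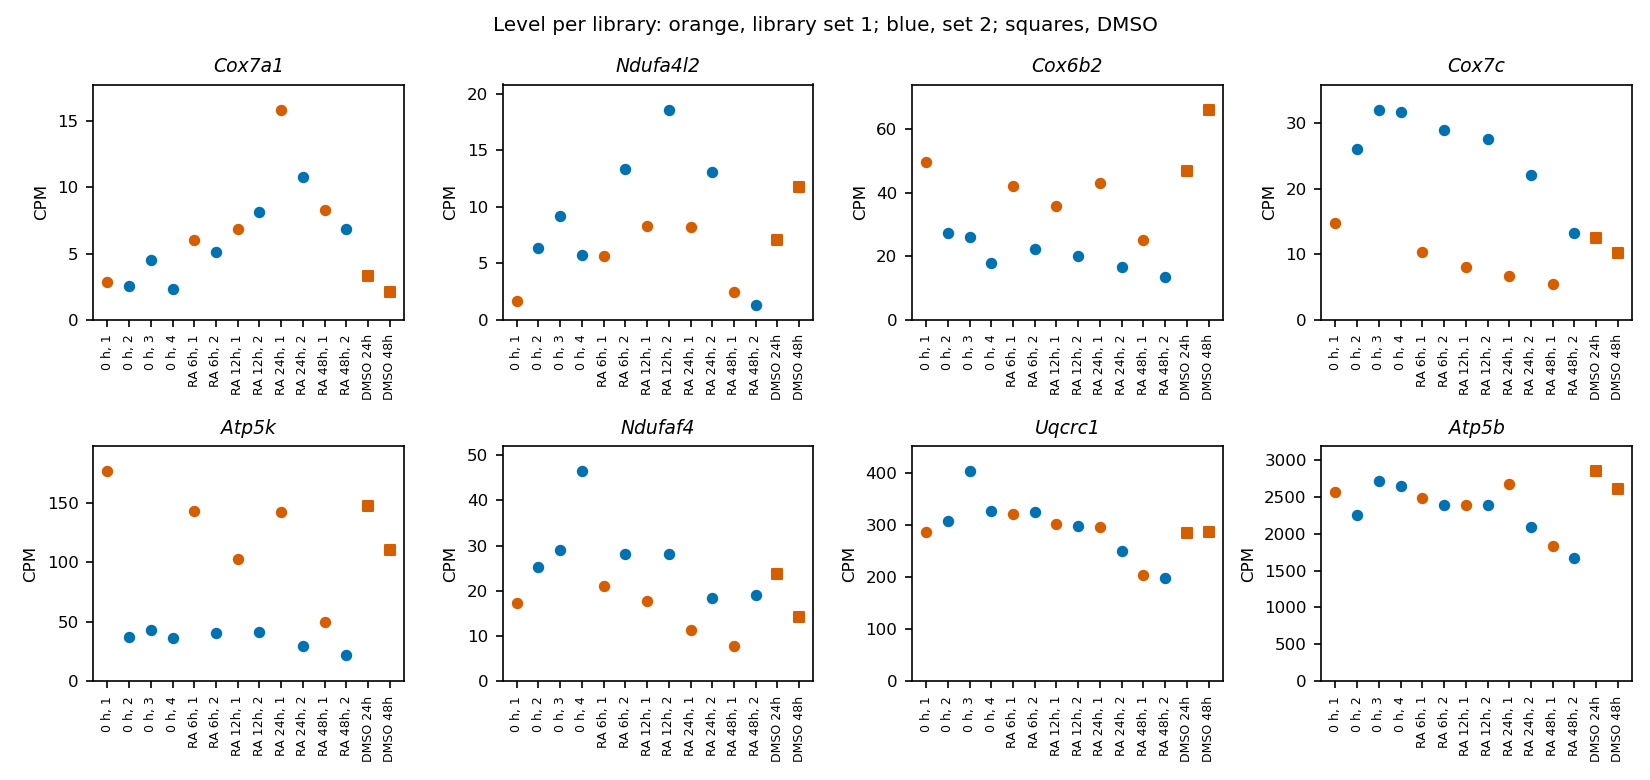
CPM of 8 members in each library (orange, set 1; blue, set 2; squares, DMSO). Cox7a1 is above 0 h at every RA time, Ndufa4l2 stands highest at 12 h at 18.6 CPM, and Uqcrc1 and Atp5b have similar levels in both sets, whereas Cox6b2, Cox7c, Atp5k and Ndufaf4 differ between sets.

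The members were also compared for what their promoters share. RefSeq promoter windows of build GRCm38.p6, each of 300 bases from 250 before to 50 after a gene's start, matched 75 of the 99 members with 80 windows. Nuclear respiratory factor 1 (NRF1) is a transcription factor known for binding many promoters of respiratory chain genes. Its core, GCGCA and GCGC with 1 base of any kind between them, was searched on both strands. It was present in 20 of 80 member windows (25%) and in 4.603% of 32851 windows of all genes. Among windows of at least 60% GC it was present in 31.25% of 32 member windows and 10.877% of 9690 windows. Windows of members that were lower at 48 h held it in 12 of 46 cases (26.1%) and those of the other members in 8 of 34 (23.5%).

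Other cores were searched in the same way. CCGGAAG, bound by ETS factors such as GABP, was in 22.5% of member windows against 8.858%. CGCCATNTT, bound by YY1, was in 13.75% against 2.38%. The element TCAAGGTCA of estrogen-related receptors was in 2.5% against 0.423%. A direct repeat of AGGTCA with 5 bases between the copies (DR5), known to be bound by RA receptors with their partners, was in 0 member windows and in 0.009% of all windows. A match is a description of letters in these windows and not a bound site.

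Promoters of 4 members are shown, 3 that were lower at 48 h and hold the NRF1 core in different places, and that of Cox7a1, which was higher and holds none of these motifs. The windows of Cox7c and Cox6b2, which were lower at 48 h, hold none of them either. The 4 are examples and do not show how the motifs relate to direction. Capitals mark the motifs, which in Atp5k include the ETS core at base 13 and in Sdhd the ETS core at base -46 and the element of estrogen-related receptors at base 37, counted from the gene's start. The NRF1 core begins at bases 6 and 31 in Uqcrc1, -50 in Atp5k and -79 in Sdhd. Uqcrc1 lies at chr9:108936398-108936697 on the plus strand, Atp5k at chr5:108434350-108434649 on the minus strand, Sdhd at chr9:50603800-50604099 on the minus strand and Cox7a1 at chr7:30183921-30184220 on the plus strand, and each sequence is written 5′ to 3′ on the gene's strand.
Uqcrc1: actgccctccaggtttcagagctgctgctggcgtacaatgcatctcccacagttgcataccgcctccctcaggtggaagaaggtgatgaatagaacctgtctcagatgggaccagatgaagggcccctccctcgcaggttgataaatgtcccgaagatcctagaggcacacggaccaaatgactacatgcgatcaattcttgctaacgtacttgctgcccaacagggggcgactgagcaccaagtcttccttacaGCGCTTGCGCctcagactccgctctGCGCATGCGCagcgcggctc
Atp5k: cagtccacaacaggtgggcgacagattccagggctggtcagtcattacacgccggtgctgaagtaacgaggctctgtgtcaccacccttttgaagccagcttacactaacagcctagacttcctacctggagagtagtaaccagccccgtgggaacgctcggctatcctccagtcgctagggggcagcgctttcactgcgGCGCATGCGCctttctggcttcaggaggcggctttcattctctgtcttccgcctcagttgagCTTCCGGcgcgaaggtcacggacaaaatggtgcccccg
Sdhd: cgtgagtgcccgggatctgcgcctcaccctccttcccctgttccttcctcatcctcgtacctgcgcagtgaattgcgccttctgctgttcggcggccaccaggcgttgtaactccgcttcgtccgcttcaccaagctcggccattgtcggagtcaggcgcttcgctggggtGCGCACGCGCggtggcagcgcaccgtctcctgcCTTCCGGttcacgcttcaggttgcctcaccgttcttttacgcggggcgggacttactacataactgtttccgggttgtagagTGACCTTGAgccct
Cox7a1: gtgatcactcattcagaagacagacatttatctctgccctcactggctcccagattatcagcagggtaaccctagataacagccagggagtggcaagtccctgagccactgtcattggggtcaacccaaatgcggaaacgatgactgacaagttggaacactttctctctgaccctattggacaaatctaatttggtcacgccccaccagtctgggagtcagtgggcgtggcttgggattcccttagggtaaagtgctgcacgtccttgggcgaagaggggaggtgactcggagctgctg

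DMSO alone gave no calls among the members. No member was called between the DMSO libraries and 0 h by edgeR (0% of all genes were called), 3 passed an unadjusted p of 0.05, and DESeq2 called 0 members. The median over the members was -0.08. With 1 library a time, DMSO was assumed to vary like the other groups, and a p above the threshold does not show that it had no effect.

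Against DMSO of the same time, RA changed 1 member at 24 h and 14 at 48 h. At 24 h Cox7a1 was higher (2.05 ± 0.48, edgeR adjusted p = 0.0167; 5.83% of all genes were higher) and 0 members were lower (4.61%). The call for Cox7a1 was lost without replicate 1 of 24 h (1.72, adjusted p = 0.12), and without replicate 2 there were 3 calls. At 48 h Cox7a1 was again higher (1.93 ± 0.51, adjusted p = 0.0153; 12.6% of all genes were higher) and 13 members were lower (11.5%). Among genes of at least 10 CPM the share lower was 12 of 84 members against 16.4%, so the number of calls does not set the members apart here. The median log2 difference of members at that level was -0.38, against -0.13 for genes of at least 10 CPM. Over all 96 members it was -0.40, and 91 lay below zero.

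The 13 members lower than in DMSO came from every complex. They were Ndufb9, Ndufb10, Ndufv3, Ndufb3, Ndufa10 and Ndufv1 of complex I, Sdhc of complex II, Uqcrb of complex III, Cox6b2, Cox7c and Cox6c of complex IV, Atp5b of complex V, and Ndufa4l2. The largest were Ndufa4l2 at -3.08 ± 0.59, Cox6b2 at -1.33 ± 0.26 (edgeR adjusted p = 0.00232) and Cox7c at -0.99 ± 0.31 (adjusted p = 0.0346). Cox7c was not called without either RA library of 48 h (-1.15 and -0.85), and Cox7a1 not without replicate 1 (1.76, adjusted p = 0.0783). Without replicate 1 of 48 h 5 members were called, without replicate 2 it was 6, and with no term for the set 0. Both DMSO libraries lie in set 1, and the part of this in the lost calls was not tested. The difference between the 48 h and the 24 h contrast, tested after these values were seen, was called for 0 members and for 0.0619% of all genes. It was -3.15 ± 0.82 for Ndufa4l2 (edgeR adjusted p = 0.232).

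Subunits encoded by mitochondrial DNA had 2 calls at 24 h and 1 at 48 h, all lower. Of the 13 genes, 7 could be tested and 4 had 0 counts in every library. The share lower was 28.6% at 24 h, against 13.5% of all genes and 19.2% of genes of at least 10 CPM. At 48 h it was 14.3%, below the 22.9% of all genes and 32.3% of genes of at least 10 CPM. At 24 h mt-Nd1 and mt-Nd4, core membrane subunits of complex I, were lower (log2 changes -0.46 ± 0.13 and -0.42 ± 0.15, edgeR adjusted p = 0.019 and 0.0471), all 7 lay below zero and the median was -0.30. At 48 h only mt-Nd1 was lower (log2 change -0.36 ± 0.13, edgeR adjusted p = 0.0401), and the median was -0.08. mt-Co1, a catalytic subunit of complex IV, changed by -0.08 ± 0.12, and mt-Cytb, of complex III, by -0.24 ± 0.12 (adjusted p = 0.633 and 0.0961). Their summed level was 18267 and 17902 CPM at 48 h, 14682 and 16450 CPM at 24 h and 19111 to 20458 CPM at 0 h. The difference between nuclear and mitochondrial genes was not tested.

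Factors that build the complexes and do not carry the symbols above were lower in 12 of 40 and higher in 0 at 48 h, with a median of -0.26. This is near the shares of 22.9% of all genes and 32.3% of genes of at least 10 CPM that were lower. The largest were Ecsit (-1.30 ± 0.14), an assembly factor of complex I, Cox10 (-1.06 ± 0.18), which makes the heme of complex IV, and Bcs1l (-0.83 ± 0.18), which inserts the Rieske protein into complex III (edgeR adjusted p = 8.31e-06, 0.000223 and 0.00171). Genes of ubiquinone synthesis were lower in 6 of 11, with a median of -0.44. Among them were Pdss1 (-1.33 ± 0.17) and Pdss2 (-0.81 ± 0.29), which build the side chain, and Coq3 (-1.12 ± 0.23), a methyltransferase (adjusted p = 2.21e-05, 0.034 and 0.00109).

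Regulators of mitochondrial biogenesis and of mitochondrial DNA expression were lower at 48 h in 11 of 19 and higher in 1, with a median of -0.65. Of all genes tested, 22.9% were lower and 25.8% higher, and of genes of at least 10 CPM 32.3% were lower. Myc, a transcription factor of growth, changed by -2.94 ± 0.25 (edgeR adjusted p = 1.12e-06). The coactivators Ppargc1b and Pprc1 changed by -1.37 ± 0.40 and -1.11 ± 0.12 (adjusted p = 0.012 and 8.35e-06). Nrf1 itself changed by -0.73 ± 0.12 and Tfam, which packs and transcribes mitochondrial DNA, by -0.75 ± 0.11 (adjusted p = 0.000306 and 0.000117). Esrra, an estrogen-related receptor, went the other way (0.67 ± 0.17, adjusted p = 0.00456).

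Ribosomal protein genes were also lower. At 48 h, 64 of 76 mitochondrial ribosomal proteins were lower than at 0 h, with a median of -0.68. So were 69 of 81 cytosolic ones, with a median of -0.84, and none of either list was higher. Of all genes 22.9% were lower, and of genes of at least 10 CPM 32.3%. Against DMSO of 48 h, 29 of 76 and 24 of 81 were lower (11.5% of all genes, 16.4% of genes of at least 10 CPM), with medians of -0.54 and -0.63. A lower level in proportion to all counts was thus shared by several large groups of well expressed genes. Because CPM are relative, a change of the total RNA per cell cannot be seen in them.

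Fuel pathways were mixed. Of the tricarboxylic acid cycle with pyruvate dehydrogenase 5 of 17 genes were lower and 1 higher, with a median of -0.25, and the number lower is near the 22.9% of all genes and 32.3% of genes of at least 10 CPM. They included Pdhb (-1.19 ± 0.13), a subunit of pyruvate dehydrogenase, Mdh2 (-0.53 ± 0.15) and Idh3a (-0.49 ± 0.13), while Idh2, the isocitrate dehydrogenase that uses NADP, was higher (0.61 ± 0.11; edgeR adjusted p = 7.18e-06, 0.0116, 0.00687 and 0.000663). Of glycolysis 7 of 22 were lower, again near those shares, and 4 higher (25.8% of all genes), with a median of -0.45. Pdk1 (-1.89 ± 0.16), a kinase that holds pyruvate dehydrogenase back, Slc16a3 (-1.32 ± 0.40), a lactate exporter, and Pkm (-1.08 ± 0.15), pyruvate kinase, were lower. Slc2a3 (1.04 ± 0.16), a glucose transporter, Hk1 (0.82 ± 0.15), a hexokinase, and Ldhb (0.66 ± 0.15), a lactate dehydrogenase subunit, were higher (adjusted p = 6.09e-07, 0.021, 6.07e-05, 0.000117, 0.000541 and 0.00244 in that order).

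Carriers of the inner membrane included calls both ways. Of 14 tested genes of carriers, uncouplers, outer membrane channels and the ATP synthase inhibitor, 6 were lower and 2 higher at 48 h, with a median of -0.21. These are 42.9% and 14.3%, against 22.9% and 25.8% of all genes. Among genes of at least 10 CPM, 32.3% were lower and 22.6% higher, with a median of -0.13. Slc25a5, the widely expressed carrier that exchanges ADP for ATP, changed by -0.997 ± 0.14 (edgeR adjusted p = 7.32e-05), and Slc25a4, its form known from heart and muscle, by 1.07 ± 0.15 (adjusted p = 5.72e-05). Slc25a3, which brings phosphate in, and Ucp2, an uncoupling protein, changed by -0.78 ± 0.12 and -1.03 ± 0.16 (adjusted p = 0.000101 and 0.000114). Slc25a13, an aspartate-glutamate carrier, was higher (0.37 ± 0.12, adjusted p = 0.0203).

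**Figure D5:**
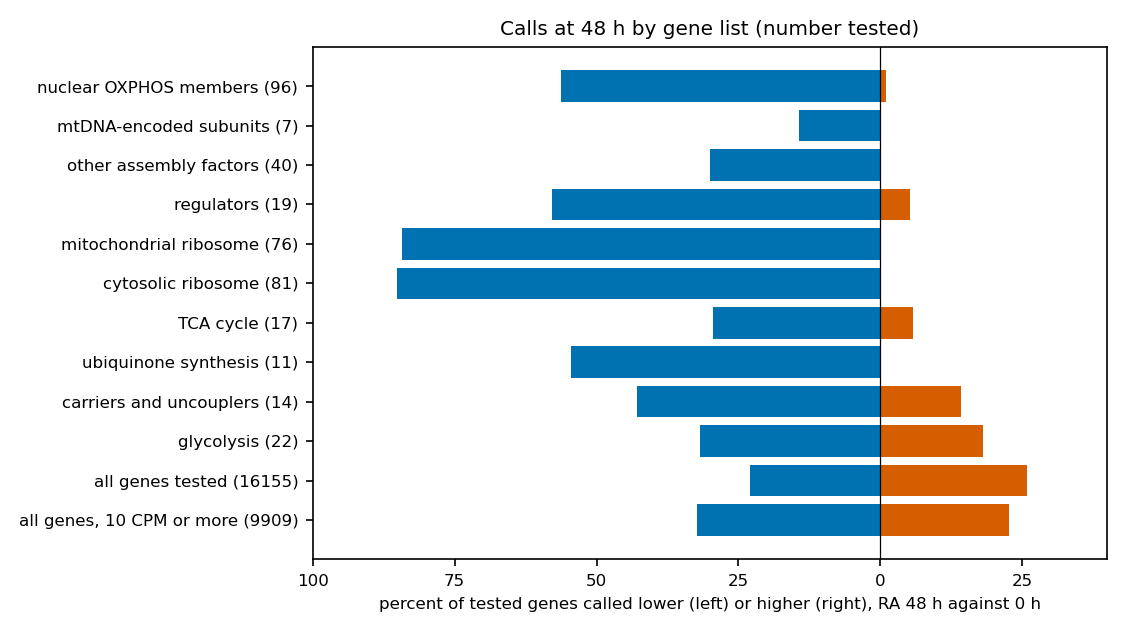
Percent of the tested genes of each list called lower (blue, to the left) or higher (orange, to the right) at 48 h of RA against 0 h, with the number tested in brackets. The nuclear genes of oxidative phosphorylation, at 54 lower of 96, lie above all genes of at least 10 CPM (32.3%) and below the mitochondrial and cytosolic ribosomal proteins.

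The library sets differed for many members. In the same fit 18 members were higher and 34 lower in set 2 than in set 1 (22% and 20.1% of all genes). Atp5k (-1.81 ± 0.14), Atp5g1 (-1.33 ± 0.14) and Cox6a1 (-1.21 ± 0.16) were lower in set 2, and Cox7c was higher (1.41 ± 0.15; edgeR adjusted p = 6.95e-07, 1.2e-05, 9.88e-05 and 7.8e-06). The set is unevenly spread over the DMSO groups, which lie in set 1 alone.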

How the data were processed

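Per the labels, mRNA was extracted from F9 cells and sequenced as single reads. The authors deposited raw read counts per Ensembl gene, 1 table a library, with no normalization, and, per the submitters' processing notes, used TopHat2 2.0.7, HTSeq and DESeq on build mm9, with strand setting and options not given in the sources used here. Entries for no gene (72.5 to 76.8% of each table) were left out. Counts of 14 libraries were fitted in 1 quasi-likelihood model with edgeR 4.0.16 in R 4.3.3, with a term per group and a term for the library set, TMM, robust estimation and the default filter by group, which kept 16155 of 36814 genes. P-values are two-sided and adjusted by Benjamini-Hochberg, and the SE is the size of the log2 change over the square root of the F statistic. The fit was also run on simulated data with the same set effect in every group. That run does not cover sets that went different ways, as at 24 h.

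The sets were split at a no-feature share of 55.5%, the middle of the widest gap. Deviations of replicates 1 and 2 correlated between groups (r 0.660 to 0.792 over 10 pairs of groups), but replicate number and set mark the same split, so pairing and set cannot be told apart. Replicates differed by more than counting error (chi-squared per degree of freedom 10.2 to 16.9 inside set 2 at 0 h and 32.1 to 62.9 across sets). Alternatives were RLE, DESeq2 1.42.0 with the set term, other filters, no set term, set 2 alone, the replicate number as a block (replicates 1 and 2 of 0 h and RA) and each library left out.

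The members and gene lists were chosen with earlier results of these data known. Named by rule were called members of at least 5 CPM with the largest changes and a set of fixed subunits; Ndufs6, Ndufs7, Ndufs8, the full list against DMSO, Nrf1, Tfam, mt-Nd4, mt-Co1 and mt-Cytb were added after their values were seen. Promoter windows came from RefSeq, and the regions bound by RA receptors and the ChIP reads were not used here. Values of 1 member and of 1 marker gene are not reported here by name.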

Additional observations from a re-analysis of the deposited data

Results flagged for a closer look

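At 0 h, 49 values (the named members, and sums over complexes and gene lists) were screened for 1 library far from the other 3 by Dixon's test, which chance passes for about 1 in 20 groups, and 6 passed. In replicate 1, the only 0 h library of set 1, Atp5k stood at 176 CPM against 36.3 to 42.9 CPM in the others, Cox6c2 at 54.3 CPM against 24.9 to 28.1 CPM, and Uqcrc2 at 180 CPM against 268 to 280 CPM. In replicate 3, Cyc1 stood at 337 CPM against 265 to 273 CPM, Cox7a2l at 80.4 CPM against 70.4 to 71.1 CPM, and Cox8c at 0.105 CPM, a single count, against 0.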

How the results depend on the processing

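All 55 members called at 48 h kept their direction in every alternative. The total of members called was 52 with RLE, 54 with DESeq2, 49 with no filter, 48 with at least 1 CPM in 4 libraries, 14 with no set term, 21 with set 2 alone, and 23 to 58 with a library left out. With the replicate number as a block it was 37, all among the 55, and the block gave 0, 3 and 4 calls at 6, 12 and 24 h against 0, 2 and 4. Calls elsewhere were few. At 12 h the 2 became 0 with no set term and with set 2 alone, and 0 to 2 with a library left out. At 24 h the 4 became 1 with no set term and 1 with set 2 alone. At 6 h the range was 0 to 1. Against DMSO of 24 h the 1 call became 0 with no set term, 2 with DESeq2, 2 with no filter and 0 to 3 with a library left out. Against DMSO of 48 h the 14 became 0 with no set term and 5 to 6 with a library left out. Among the members named by the rule, those not called that changed sign at 48 h were Atp5g2 (0.028 with no set term, 0.090 with the replicate block, 0.19 with set 2 alone, -0.54 to 0.22 with a library left out), Cox6a1 (0.19 with no set term, -0.64 to 0.062 with a library left out) and Sdha (-0.36 to 0.0099 with a library left out). The cause was not tested. Leaving out the only DMSO library, and the block or set 2 alone for DMSO, could not be fitted. Calls of members near 1 CPM are limited by depth.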

Other observations

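The DMSO libraries, whose sums over all nuclear genes of oxidative phosphorylation were within the range of 0 h, held more summed glycolysis transcripts (12585 CPM at 24 h and 12445 CPM at 48 h) than any 0 h library (8261 to 10674 CPM). Of the 22 tested glycolysis genes, 1 was higher and 10 were lower after 48 h of RA than in DMSO of 48 h (12.6% and 11.5% of all genes), against 4 higher and 7 lower in comparison with 0 h. Ndufa4l2, at 7.10 and 11.8 CPM in DMSO and 1.65 CPM in the 0 h library of the same set, was also above it in DMSO, without a call. Between DMSO and 0 h edgeR called 0 genes and DESeq2 called 6, so these are levels in 2 libraries and not called differences.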
